A study of Mus musculus with 28 samples.

Results

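Plasma extracellular vesicles (EVs) of 12 wild-type (WT) mice were compared, 6 after neuromuscular electrical stimulation (NMES) and 6 controls, by sequencing their small non-coding RNA (ncRNA). These are all the WT libraries of a series of 28 and were chosen by the genotype and treatment labels alone, 1 library per mouse. The NMES libraries are A3199, A3201, A3203, A3205, A3207 and A3209, and the control libraries A3198, A3200, A3202, A3204, A3206 and A3208. All mice were 2 months old, internally bred and randomly assigned. NMES mice were stimulated at 9 mA through a probe held at the piriformis, on both hind legs, in 2 sets of 10 stimulations per leg, in 5 sessions given every other day under 2.5% isoflurane. Control mice breathed 2.5% isoflurane for 15 min on the same days, so anesthesia is common to both groups. Tissue and blood were taken 24 h after the last session, EVs were purified from plasma with a column kit, and the same kit and library preparation served every sample. The other 16 libraries come from KlHET mice, which are heterozygous for a disrupted Kl gene, encoding KLOTHO, and are used below only in the shared fit and to show where the WT difference departs from theirs. In plasma, a smaller number of EVs carrying an RNA cannot be told apart from less of that RNA in each EV.

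EVs are membrane vesicles that cells release and that carry RNA through blood. A miRNA is cut from a hairpin precursor and represses messenger RNAs that pair with its seed, the bases near its 5′ end. Box C/D snoRNAs (Snord) guide methylation of ribosomal and spliceosomal RNA in the nucleolus, and box H/ACA snoRNAs (Snora) guide pseudouridylation. snRNAs belong to the spliceosome. tRNAs carry amino acids to the ribosome and are found in plasma mostly as cleaved fragments. circRNAs are closed RNA circles formed by back-splicing, which resist exonucleases. Blood EVs take their RNA from blood cells, endothelium, liver and other organs, and contracting skeletal muscle is among the tissues known to release vesicles.

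The sequences of the RNAs on which the comparison turns are printed first. The let-7 family is shown because all 8 of its tested members had lower fitted levels in NMES libraries and carry the same seed, GAGGUAG. let-7 members repress growth and cell cycle genes, and differ from each other outside the seed. Capitals mark the seed, bases 2 to 8, in all mature sequences, which are from RefSeq (GRCm38.p6). let-7a-5p was matched only to the gene Mirlet7a-1, at chr13:48538239-48538260 on the minus strand, and a further locus is not excluded. let-7b-5p is encoded at chr15:85707325-85707346 on the plus strand, let-7c-5p at chr15:85706616-85706637 and chr16:77599672-77599693 on the plus strand, and let-7g-5p at chr9:106178846-106178867 on the plus strand.
let-7a-5p: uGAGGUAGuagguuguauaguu
let-7b-5p: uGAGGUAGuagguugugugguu
let-7c-5p: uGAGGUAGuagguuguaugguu
let-7g-5p: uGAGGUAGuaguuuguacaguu

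miR-128-3p, miR-9-5p, miR-218-5p and miR-7a-5p are shown because their levels were far higher in a single control library, A3206, than in any other WT library. miR-128-3p and miR-9-5p are abundant in neurons, miR-218-5p in motor neurons, and miR-7a-5p in neuroendocrine cells and brain. miR-128-3p is encoded at chr1:128202404-128202424 (plus strand) and chr9:112118644-112118664 (minus strand). miR-9-5p lies at chr3:88215613-88215635, chr7:79505279-79505301 and chr13:83738821-83738843, all on the plus strand. miR-218-5p lies at chr5:48223966-48223986 and chr11:35616840-35616860 on the plus strand. miR-7a-5p lies at chr7:78888295-78888317 on the plus strand and chr13:58392841-58392863 on the minus strand. None of the 4 shares a seed with let-7 or with another of them.
miR-128-3p: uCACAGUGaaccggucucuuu
miR-9-5p: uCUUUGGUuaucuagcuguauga
miR-218-5p: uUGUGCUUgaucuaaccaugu
miR-7a-5p: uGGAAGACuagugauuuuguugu

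miR-6538 and the precursor mir-5126 are shown because they alone among tested miRNAs kept an unadjusted p under 0.05 whichever WT library was left out. Both were higher in NMES libraries in all of these edgeR fits. miR-6538 is encoded at chr12:26414970-26414988 on the minus strand, and the hairpin of mir-5126 at chr1:84695839-84695915 on the plus strand. G and C make up 94.7% of the bases of miR-6538 and 83.1% of those of the mir-5126 hairpin. The median was 47.7% over the 106 of 129 tested miRNA entries that were matched in RefSeq. miR-8109, not higher with NMES (log2 difference -0.25), has 95.2%. The mir-6340 hairpin, which was higher in the fit, has 58.8%.
miR-6538: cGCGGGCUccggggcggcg
mir-5126: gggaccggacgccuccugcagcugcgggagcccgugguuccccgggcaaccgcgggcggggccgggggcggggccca

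Snord14d, Snord14c and Snord83b are shown because, once control library A3206 is left out, they differed most in library CPM, counts scaled to a library total of 1000000, among the box C/D snoRNAs. Snord14c and Snord14d have closely similar sequences and counts. Snord83b is encoded at chr15:80078498-80078591 on the minus strand Snord14d at chr9:40803995-40804080 and Snord14c at chr9:40803583-40803668, both on the plus strand (GENCODE, GRCm38). Capitals mark the first TGATGA, the core of box C, and the last CTGA, box D, on the strand of the RNA. Both groups of letters were searched in the whole RNA on its own strand, and 73 of 94 Snord RNAs hold TGATGA and 94 hold CTGA.
Snord83b: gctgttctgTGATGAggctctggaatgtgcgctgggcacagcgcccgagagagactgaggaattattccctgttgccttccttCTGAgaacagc
Snord14d: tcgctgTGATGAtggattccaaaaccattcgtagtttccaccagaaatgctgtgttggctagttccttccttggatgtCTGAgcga
Snord14c: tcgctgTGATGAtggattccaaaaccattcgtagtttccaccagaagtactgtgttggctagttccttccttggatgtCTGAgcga

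Library totals ranged from 693735 to 3389206 counts in control (median 848136) and from 580603 to 1794243 in NMES libraries (median 1056476). Control library A3206 stood apart: it held the largest total, 63.3% of its counts fell on tRNAs, and its miRNA profile correlated with the other controls at a median Spearman rho of 0.548, against 0.830 to 0.922 for the other 11 libraries. It was the highest of the 12 libraries for 40 of 129 tested miRNAs, by over 5 times the next for 8 of them, and the lowest for 16. Control library A3202 stood apart in its tRNA profile (rho 0.642, A3206 0.727, the others 0.814 or more). Whether A3206 is mislabelled or holds RNA from another source was not tested, and control values that include it are subject to that doubt. Results that rest on these libraries are given with and without them, and these omissions were chosen after seeing the data, apart from leaving out each library in turn. RNAs known as markers of erythroid cells (miR-486a-5p, miR-451a), liver (miR-122-5p), vessels (miR-143-3p, miR-126a-3p) and leukocytes (miR-21a-5p, miR-150-5p) were present in every WT library by their summed levels, with 14491 CPM or more for each list. That lowest sum was of the leukocyte list in control A3200, where miR-21a-5p made up 6813 CPM. The 5 tested leukocyte miRNAs had counts in every WT library. Others of that list were near absent: miR-142a-3p had counts only in A3206 (7) and A3203 (1), miR-155-5p only in A3199 (2), and miR-223-3p had 1 to 19. CPM alone means counts scaled in the same way to the total of the same RNA class, with TMM factors.

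miRNAs and snoRNAs took a smaller share of the NMES libraries than of the controls. miRNAs made up 2.18 to 4.59% of all counts in control (median 3.06%) and 1.43 to 2.24% in NMES libraries (median 2.09%). Control A3200, at 2.18%, lay under NMES A3199 and A3201, and the other 5 controls were above every NMES library. The means were 3.17 ± 0.792% and 1.96 ± 0.332% (SD, n = 6 each), a difference of -1.21 percentage points (two-sided exact permutation test, p = 0.0065, adjusted p = 0.027 over 5 classes). Without A3206 the difference was -1.28 points (exact permutation test, p = 0.0065). The snoRNA share was 0.0563 to 0.438% in control (median 0.0645%) and 0.0346 to 0.0594% in NMES libraries (median 0.0447%), with an exact permutation p of 0.011 (adjusted p = 0.027). A3206 was far above the other controls, which spanned 0.0563 to 0.0660% and overlapped with the highest NMES libraries. Without it the snoRNA difference was -0.0160 points (exact permutation test, p = 0.019). With each library left out in turn, the miRNA p stayed between 0.0022 and 0.0087, while the snoRNA p ranged from 0.0043 to 0.24 and was over 0.05 in 6 of 12 cases (exact permutation tests).

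**Figure D1:**
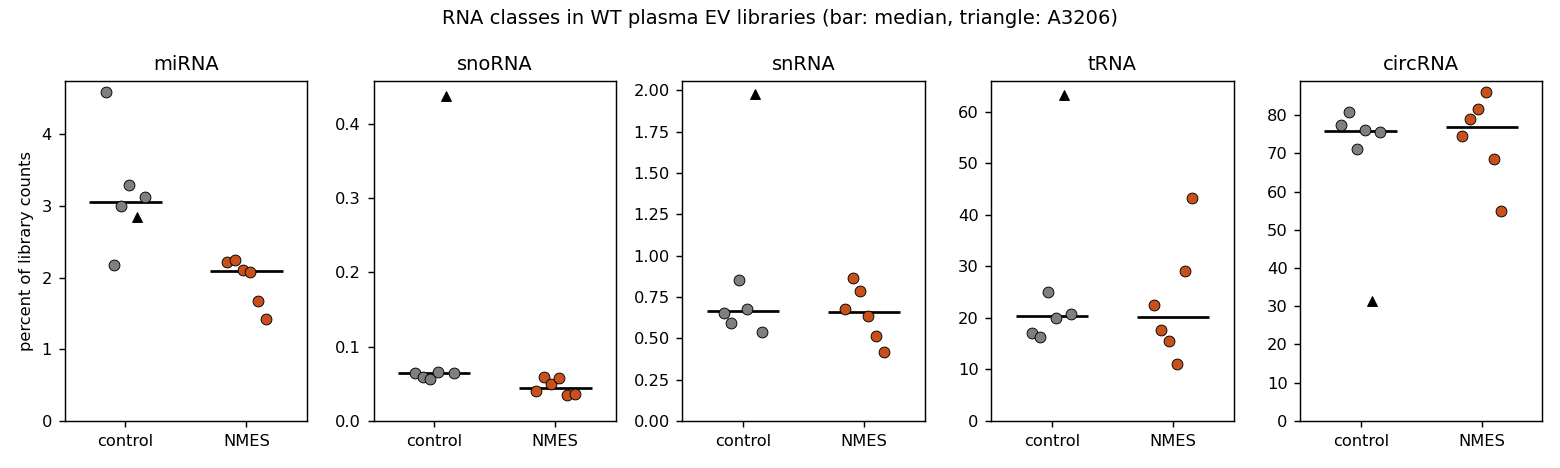
Share of each RNA class in the counts of each WT library, in percent on linear axes that start at 0, by group, with a bar at the median and a triangle for control library A3206. For miRNAs, 5 of the 6 controls lie above every NMES library, whereas tRNA and circRNA shares overlap widely and A3206 stands far from the rest.

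The shares of the larger classes did not differ beyond their spread. Counts on circRNA annotations are called circRNAs here, and whether the counted RNAs are circular was not tested. circRNAs took 74.1 ± 11.2% of NMES and 68.8 ± 18.6% of control counts (SD, n = 6 each; p = 0.62, exact permutation test), and tRNAs 23.2 ± 11.6% and 27.1 ± 18.03% (SD, n = 6 each; p = 0.69, exact permutation test). Both differences turned around without A3206, to -2.09 points for circRNAs and 3.395 points for tRNAs. snRNAs took 0.648 ± 0.165% and 0.881 ± 0.548% (SD, n = 6 each; p = 0.44, exact permutation test).

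The smaller miRNA share was spread over the class. In library CPM, 100 of the 129 tested miRNA entries had the lower median in NMES libraries (77.5%), and 115 (89.1%) the lower mean once A3206 was left out. The mean differed most for miR-122-5p, the main miRNA of hepatocytes, at 1256 library CPM with NMES and 3011 in control, where A3198 alone held 10040 and the medians were 1076 and 1290. miR-148a-3p, another liver-rich miRNA, had means of 1217 and 2117 and medians of 1059 and 2045 library CPM. let-7b-5p had means of 441 and 924 and medians of 476 and 905 library CPM. No single entry separated the groups on this scale. Mature arms alone gave 1.58 ± 0.269% and 2.70 ± 0.740% (SD, n = 6 each; p = 0.0087, exact permutation test), and the 537 precursor entries 0.374 ± 0.0891% and 0.470 ± 0.144% (SD, n = 6 each; p = 0.19, exact permutation test). Without A3206 the precursor share also differed, by -0.144 points (exact permutation test, p = 0.035, adjusted p = 0.042). Leaving out the 6 most abundant entries gave 1.22 and 1.98% (exact permutation test, p = 0.0065), and leaving out the let-7 and neuron lists 1.75 and 2.63% (exact permutation test, p = 0.032). As a share of the counts other than tRNA, miRNAs made up 2.33 to 2.87% with NMES (median 2.51%) and 2.61 to 7.77% in control (median 4.06%; exact permutation test, p = 0.0065). These divisions were chosen after the shares had been seen. In KlHET mice miRNAs took 2.11 ± 0.291% of NMES and 2.43 ± 1.14% of control counts (SD, n = 8 each; p = 0.45, exact permutation test), and the WT difference minus that in KlHET was -0.898 points (permutation test, p = 0.17).

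As a share of all counts, box C/D snoRNAs were the part of the snoRNA share that separated the groups. In library CPM, the 95 Snord entries summed to 104.7, 118.2, 149.9, 175.6, 175.7 and 180.1 in NMES libraries and to 182.6, 206.1, 253.7, 281.4, 323.2 and 1472 in controls. Every NMES library was below every control, and the nearest pair, A3199 and A3202, were close. The exact permutation p of 0.0022 is the smallest that 6 against 6 libraries can give, with and without A3206 (adjusted p = 0.013 over 12 divisions of the shares chosen after seeing the data). Without A3206 the control mean was 1.65 times that of NMES. The other 761 snoRNA entries took 0.0311 ± 0.0112% and 0.0794 ± 0.103% (SD, n = 6 each; p = 0.14, exact permutation test), a difference of -0.0483 points against -0.0303 for Snord with all libraries, and of -0.00608 against -0.00987 without A3206. The 36 Snora entries, which guide pseudouridylation, summed to 11.2 to 32.6 library CPM with NMES and 22.3 to 58.8 in control, and the groups overlapped (exact permutation test, p = 0.052). Without A3206 the control mean of Snora was 1.53 times that of NMES (exact permutation test, p = 0.093).

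Snord83b, a box C/D snoRNA from an intron of the ribosomal protein gene Rpl3, had the smallest p of the tested members. It had 12, 9, 10, 7, 153 and 11 counts in the controls and 1, 0, 0, 0, 4 and 8 in the NMES libraries. All 6 controls held it and 3 NMES libraries had none, with at most 12 counts outside A3206. In library CPM it had 8.21 to 45.1 in control and 0 to 4.46 with NMES, without overlap. On the scale of snoRNA and snRNA counts its CPM was 679 to 1819 in control (median 1311) and 0 to 805 with NMES (median 70.9), a log2 difference of -2.36 (SE 0.70) with an adjusted p of 0.165 by edgeR's quasi-likelihood test. Its unadjusted p was under 0.05 in all 12 fits that left out 1 WT library. Snord14d and Snord14c, from introns of the chaperone gene Hspa8, had counts within 5 of each other in every WT library, so that they cannot be counted apart. Snord14d had 21.1 to 45.7 library CPM with NMES and 32.0 to 94.3 in control, and Snord14c 24.0 to 45.7 and 32.0 to 91.8. This pair made up 55.1% of the summed Snord difference of -98.7 library CPM without A3206, and 19.1% of the difference with all libraries. Without the pair, the Snord share was 0.00772% with NMES and 0.0322% in control (exact permutation test, p = 0.0043), and 0.0122% in control without A3206 (exact permutation test, p = 0.0065). Snord85 had 0 to 10.6 library CPM with NMES and 7.11 to 45.1 in control. All 3 overlapped between groups. Of 90 Snord entries with any count in WT, 56 had the lower and 26 the higher mean with NMES once A3206 was left out. Outside A3206 the 56 held 37 distinct patterns of counts, since 17 of them, the Snord116l entries, each had the same 1 count in control A3200 and no other. Snord83b made up 10.0% of the difference without A3206 and 5.14% of that with all libraries. With all libraries and without Snord83b, the Snord share was 0.0149% with NMES and 0.0436% in control (exact permutation test, p = 0.0087). Of the counts other than tRNA, Snord made up 0.0200 and 0.0927% (exact permutation test, p = 0.0065), with A3206 at 0.402%. There the groups overlapped, with NMES libraries at up to 0.0264% and controls from 0.0244%. In the edgeR fit of the class, 4 of 7 tested Snord entries had a log2 difference below 0. Snord14a (0.39) and Snord14e (0.34) were above 0.

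**Figure D2:**
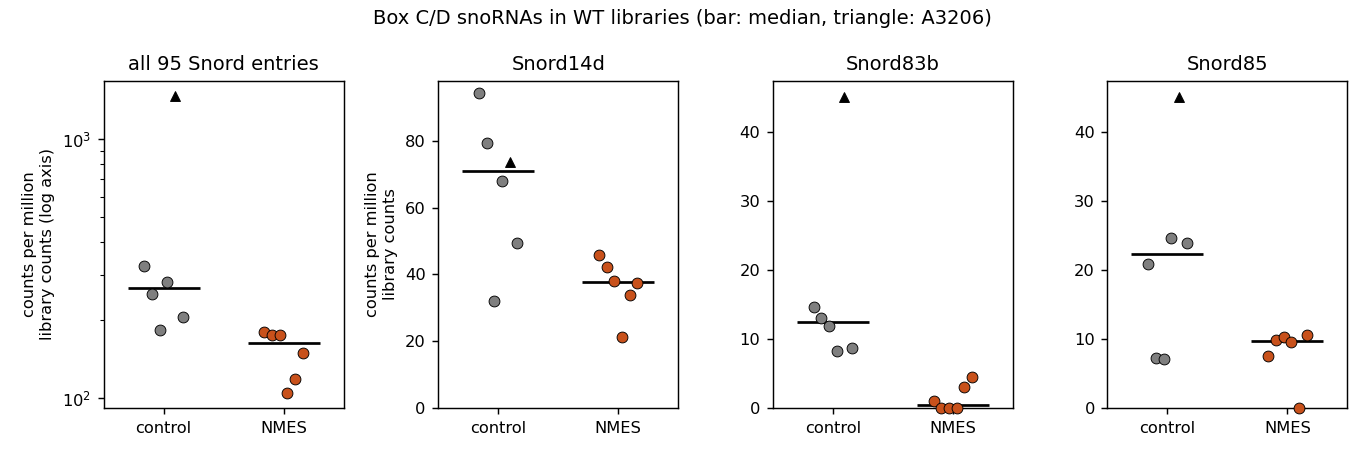
Box C/D snoRNA levels in library CPM in each WT library, by group, summed over all 95 Snord entries on a log axis and for Snord14d, Snord83b and Snord85 on linear axes, with a bar at the median and a triangle for A3206. The summed values of the 6 NMES libraries, 104.7 to 180.1, lie below all 6 controls, 182.6 to 1472.

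In KlHET mice the snoRNA share was 0.0966 ± 0.0463% with NMES and 0.0721 ± 0.0668% in control (SD, n = 8 each; p = 0.42, exact permutation test). The WT difference minus the KlHET one was -0.103 points, and was not past the threshold (permutation test, p = 0.097). In numbers of RNAs with at least 1 count, WT libraries held 103.5 ± 16.9 snoRNAs with NMES and 172.3 ± 124.7 in control (SD, n = 6 each; p = 0.037, exact permutation test, adjusted p = 0.18). That comparison lost its unadjusted p without A3206, at -18.1 snoRNAs (exact permutation test, p = 0.071). miRNAs numbered 275.5 and 335.7 (exact permutation test, p = 0.11), and for tRNAs, circRNAs and snRNAs the p-values were 0.45 to 0.63 (exact permutation tests).

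Within the miRNA class, no miRNA passed the adjusted threshold. Of 129 entries tested with edgeR's quasi-likelihood test, 0 had a Benjamini-Hochberg adjusted p under 0.05, 3 (2.33%) were higher and 19 (14.7%) lower with NMES at an unadjusted p under 0.05, and DESeq2 called 4, 1 higher and 3 lower. Without A3206, 4 of 135 (2.96%) were higher and 5 (3.70%) lower. Without A3202 as well, 1 of 139 was higher and 3 lower. Leaving out control A3198 instead put 9 of 137 past an adjusted p of 0.05, all lower, namely miR-128-3p, miR-9-5p, miR-7a-5p, let-7a-5p, let-7d-5p, let-7f-5p, let-7g-5p, miR-146b-5p and miR-203-3p, and none was past it when any other single WT library was left out. The p-values measure the spread between these libraries only, and the direction of each difference follows the deposited treatment labels.

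The 3 miRNA entries higher with NMES were mir-5126, miR-6538 and mir-6340, annotations with no established function. mir-5126 had 455 to 1294 CPM in control (median 698) and 671 to 6434 with NMES (median 1464). NMES A3209 and A3201 were highest, and A3205 and A3207 lay within the range of the controls. The log2 difference was 1.56 (SE 0.47, edgeR adjusted p = 0.069), with an unadjusted p under 0.05 in all 12 fits with 1 WT library left out. miR-6538 had 628 to 2598 CPM in control (median 1337) and 1660 to 5633 with NMES (median 3086). Control A3200 and NMES A3205 alone crossed, and the log2 difference was 1.39 (SE 0.47, edgeR adjusted p = 0.081). These 2 of 129 entries (1.55%) were the only ones with an unadjusted p under 0.05 whichever WT library was left out. mir-6340 reached 4691 CPM in NMES library A3203 and 59.8 to 530 in the other NMES libraries, against 51.8 to 386 in control. Without A3203 its log2 difference went from 2.13 to 0.27. All 3 belong to a list of 24 entries of doubtful miRNA origin, many of which overlap ribosomal RNA genes or repeats, and 7 of these were tested with a median log2 difference of 0.74, against -0.16 over all tested miRNAs. The list was chosen with earlier results of these data known, and the 7 include these 3, so the median is no separate support for them. Similarly numbered entries outside the list went either way, with miR-5119 at -0.20, mir-5110 at -0.13, miR-5106 at 0.25 and miR-5110 at 0.97. miR-215-5p, an epithelial and intestinal miRNA, had 6368 to 25832 CPM in control (median 13240) and 16787 to 34384 with NMES (median 21946). Its log2 difference was 0.67 (SE 0.34, edgeR adjusted p = 0.31), and its precursor mir-215 gave 0.90 (edgeR adjusted p = 0.39).

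The let-7 family had lower levels with NMES in the fit, and A3206 carried most of it. All 8 tested members of the 11 listed had an unadjusted p under 0.05, with a median log2 difference of -1.30. Over all tested miRNAs 61.2% had a log2 difference below 0. Without A3206 the median of the family was -0.31 and 1 of the 8, let-7b-5p, kept an unadjusted p under 0.05. let-7c-5p was the only miRNA whose groups did not overlap, 1 of 129 (0.775%). It had 17655 to 63243 CPM in control (median 20791) and 13885 to 17528 with NMES (median 16192). A3206 was the highest control and A3202 the lowest, close above NMES A3203. The log2 difference was -0.80 (SE 0.28, edgeR adjusted p = 0.081), -0.27 without A3206 (edgeR unadjusted p = 0.23) and -0.53 without A3202 and A3206 (edgeR unadjusted p = 0.031, adjusted p = 0.99). let-7a-5p had 8545 to 57905 CPM in control (median 11510) and 4769 to 16293 with NMES (median 7668), where A3206 and A3202 were the high controls, and its log2 difference went from -1.35 to -0.66 without A3206. let-7b-5p had 20123 to 57728 CPM in control (median 23046) and 13975 to 26086 with NMES (median 17127). Here A3202 and A3200 were high and A3206 was not, and the log2 difference was -0.80 with all libraries and -0.75 without A3206 (edgeR unadjusted p = 0.043). For let-7d, let-7e, let-7f, let-7g and let-7i the log2 differences were -1.79 to -0.86 with A3206 and -0.46 to -0.15 without it.

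**Figure D3:**
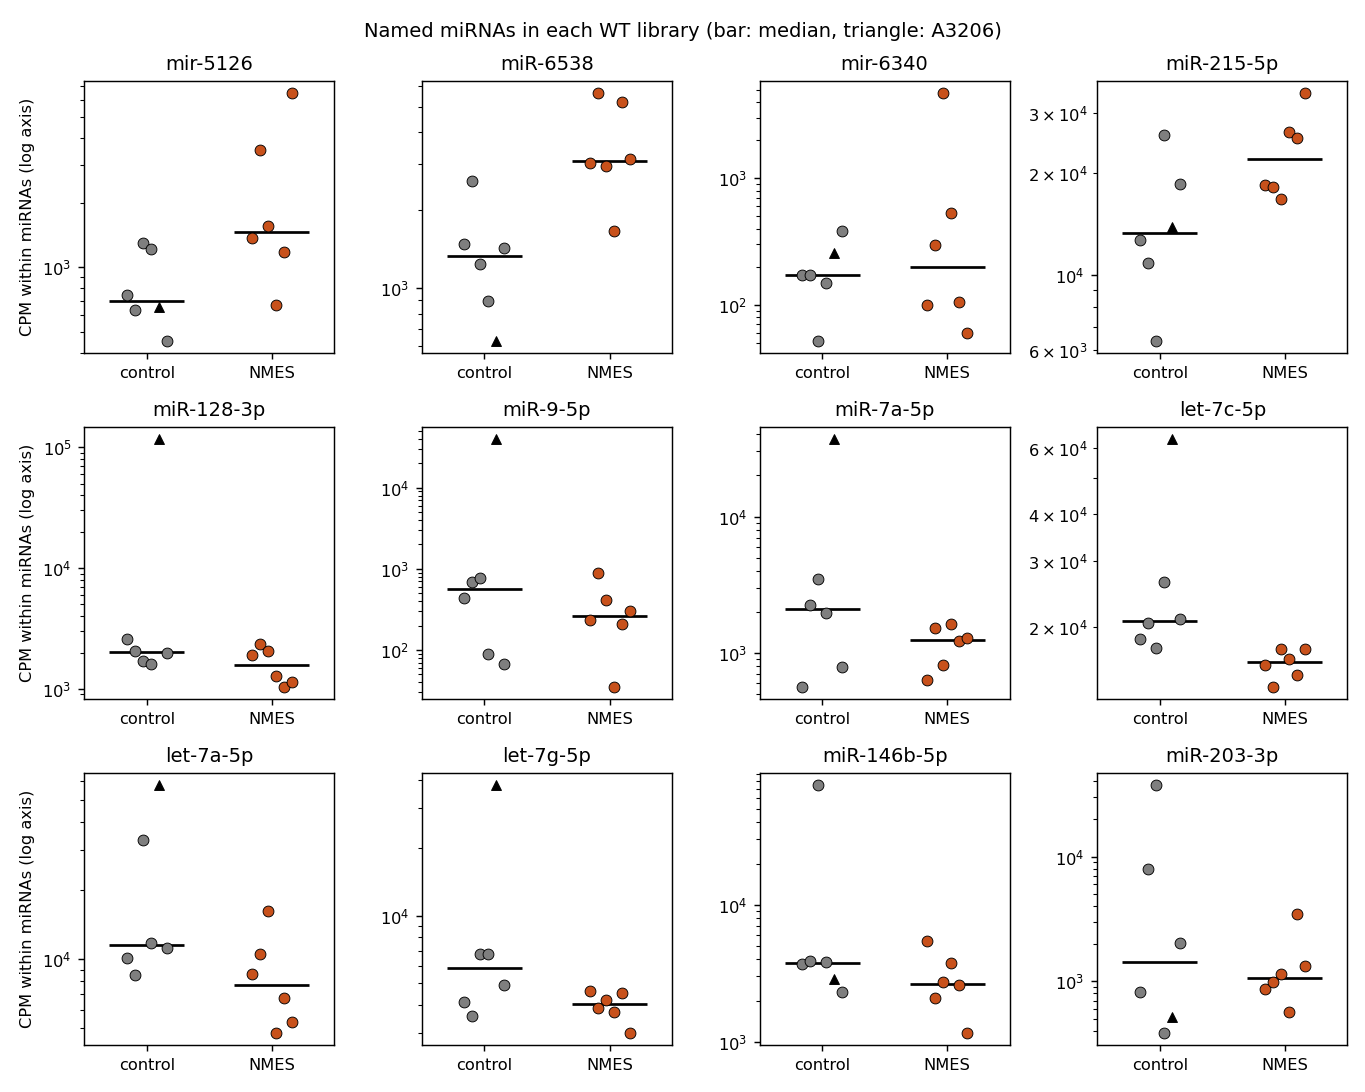
Levels of 12 named miRNA entries in each WT library, in CPM within the miRNA class on log axes, by group, with a bar at the median and a triangle for A3206. A3206 is far above all others for miR-128-3p, miR-9-5p and miR-7a-5p, and mir-5126 and miR-6538 are mostly higher in the NMES libraries.

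miRNAs of neurons and brain had the lowest median of the lists in the fit, and 5 of the 6 rested on A3206. All 6 tested members of a list of 17, of which 15 are in the table, had an unadjusted p under 0.05 for lower levels with NMES, with a median log2 difference of -3.25, against -0.18 without A3206. The summed level was 209867 CPM in A3206, 4713 to 8025 in the other 5 controls and 3411 to 5188 in the NMES libraries. miR-128-3p had 116380 CPM in A3206, at most 2565 in the other controls and 1043 to 2372 with NMES. Its log2 difference was -3.70 (SE 0.98, edgeR adjusted p = 0.069), and -0.21 without A3206. miR-9-5p had 39635.5 CPM in A3206 and at most 889 in the 11 other libraries, with log2 differences of -4.36 and -0.15. miR-218-5p (-3.98) and miR-127-3p (-2.80), a miRNA of an imprinted cluster, turned to 0.18 and 0.15 without it. miR-7a-5p had 36881 CPM in A3206, and its log2 difference went from -2.69 to -0.43. miR-139-3p was the exception. It had 419 to 4503 CPM in control (median 1818) and 329 to 1272 with NMES (median 686), A3200 and A3202 were the high controls, and the log2 difference was -1.49 with all libraries (edgeR adjusted p = 0.15), -1.38 without A3206 and -1.50 without A3202 and A3206.

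**Figure D4:**
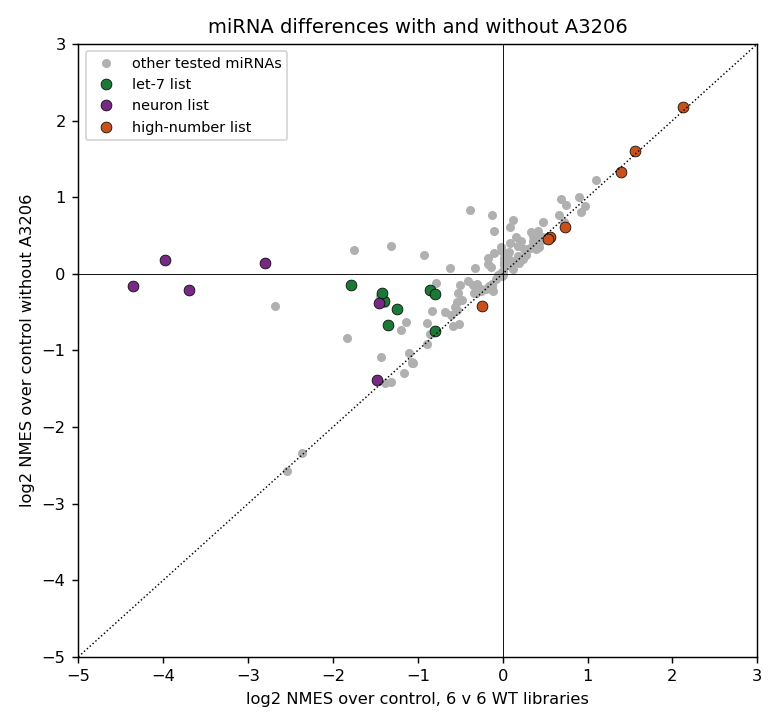
Log2 difference of each tested miRNA between NMES and control with all 12 WT libraries (horizontal axis) and without control library A3206 (vertical axis), with the let-7, neuron and doubtful-origin (high-number) lists in colour and a dotted line of equality. The neuron miRNAs move from a median of -3.25 to -0.18 and the let-7 members from -1.30 to -0.31, while the entries of doubtful origin stay near the line.

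Control A3202 set the difference of another pair of lower miRNAs. miR-146b-5p, induced in inflammation, had 74969 CPM there, 2319 to 3868 in the other controls and 1167 to 5395 with NMES, and its log2 difference of -2.36 (edgeR adjusted p = 0.069) became -0.03 without A3202. miR-203-3p, a miRNA of stratified epithelium, had 37484 CPM in A3202 and 388 to 7910 in the other controls, against 565 to 3476 with NMES, and went from -2.54 to -0.69.

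Muscle miRNAs showed no difference past the unadjusted threshold. Of 15 listed, of which 14 are in the table, 3 were tested, miR-1a-3p, miR-206-3p and mir-133a-2, and miR-208b-3p, mir-133b and mir-206 were at 0 in all WT libraries. miR-1a-3p, which promotes muscle differentiation, had 1741 to 30327 CPM in control (median 4785) and 2965 to 9892 with NMES (median 5669). A3208 was the high control, and the log2 difference of -0.58 (SE 0.59) became 0.51 without it. miR-206-3p, of slow and regenerating muscle, gave 0.92 (edgeR unadjusted p = 0.17). It had 7077 CPM in NMES A3203, 449 to 1634 in the other NMES libraries and 585 to 1819 in control. The summed muscle list was 2997 to 34828 CPM in control and 4398 to 14977 with NMES, with wide overlap, and A3203 was the highest NMES library.

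The 6 most abundant miRNA entries, miR-5119, mir-5119, miR-122-5p, miR-148a-3p, miR-486b-5p and miR-486a-5p, did not pass an unadjusted p of 0.05. Among abundant entries below these, let-7b, let-7c, let-7f and let-7i did, as given above, while miR-10b-5p, miR-143-3p, miR-21a-5p and mir-6240 did not. miR-122-5p had a log2 difference of -0.51 (SE 0.57), miR-148a-3p -0.48 (SE 0.41), miR-10b-5p 0.18 (SE 0.28) and miR-143-3p, of smooth muscle, 0.02 (SE 0.31). miR-5119 and its precursor mir-5119 gave -0.20 (SE 0.60) and -0.06 (SE 0.56), miR-21a-5p -0.35 (SE 0.27) and mir-6240 0.54 (SE 1.18). miR-486a-5p and miR-486b-5p, erythroid miRNAs with near-identical sequences, gave -0.00 and 0.01 (SE 0.35 each), and their counts stood in a ratio of 0.962 to 1.05 in every WT library, so that they cannot be counted apart. No tested member of the lists for erythroid cells (5 tested), endothelium and smooth muscle (4), liver (3), insulin and mitochondrial metabolism (9) or the miR-10, miR-100 and miR-125 families (7) had an unadjusted p under 0.05 with all libraries. miR-378a-3p, encoded in the Ppargc1b gene, had 2935 to 35647 CPM in control and 3082 to 13954 with NMES, a log2 difference of -0.89 (SE 0.77). Of the 5 tested leukocyte and 6 epithelial miRNAs only miR-146b-5p and miR-203-3p had an unadjusted p under 0.05. The 2 hypoxia miRNAs were too low to test.

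Among tRNAs, no entry passed the adjusted threshold and all of the smaller p-values were on the lower side. Of 341 entries tested with edgeR, 0 had an adjusted p under 0.05, 0 were higher and 44 (12.9%) were lower with NMES at an unadjusted p under 0.05, in 26 distinct patterns of counts, and DESeq2 called 7. The 44 belonged to proline (11), valine (9), glycine (8), alanine (8), lysine (7) and cysteine (1) tRNAs. Of the 457 tRNA entries with counts, 210 had counts identical to another entry in all 12 libraries, so that tRNA genes of like sequence cannot be told apart. Without A3206, 33 of 350 (9.43%) were lower and 0 higher. Without A3202 and A3206 together, 0 of 355 were lower and 6 higher, all of tRNA-Glu-TTC, at log2 differences of 1.10 to 1.30 (edgeR adjusted p = 0.99). Leaving out control A3198 or A3204 put 7 of 351 past the adjusted threshold, all lower.

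The 7 of 341 tRNA entries (2.05%) that kept an unadjusted p under 0.05 whichever WT library was left out were valine tRNAs, tRNA-Val-CAC-2-1 to 2-5 and tRNA-Val-AAC-1-1 and 1-2. They held 3 distinct patterns of counts, so that they are not 7 separate results. tRNA-Val-CAC-2-1 had 342, 554, 3436, 402, 3596 and 718 CPM in the controls A3198, A3200, A3202, A3204, A3206 and A3208, and 155 to 587 with NMES (median 344). Controls A3202 and A3206 were some way above all other libraries, whose groups overlapped. The log2 difference was -2.10 (SE 0.58, edgeR adjusted p = 0.070), and DESeq2 gave an adjusted p of 0.0027. Leaving out A3206 alone gave -1.65, and leaving out both high controls -0.49 (edgeR unadjusted p = 0.31). Valine tRNAs took 0.821 ± 0.686% of tRNA counts in control and 0.369 ± 0.230% with NMES (SD, n = 6 each; p = 0.087, exact permutation test), and proline tRNAs 1.05 ± 1.44% and 0.374 ± 0.159% (SD, n = 6 each; p = 0.16, exact permutation test), where A3202 held 3.99%.

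The fitted medians were uneven between anticodons of an amino acid, but no anticodon's share of tRNA counts passed an unadjusted p of 0.05. The smallest was 0.074, for Val-CAC, against 0.16 for Gly-TCC, 0.70 for Ala-TGC and 0.41 for Ala-AGC (exact permutation tests). All 7 entries of Gly-TCC were among the lower ones, with a median log2 difference of -1.27 that became -0.35 without A3206, whereas 1 of 15 entries of Gly-GCC was, with medians of -0.39 and 0.66. Pro-AGG had a median of -1.77 and Pro-CGG of -1.76, and these were -1.82 and -1.80 without A3206. Control A3202 was the high library here. It held 1.80% of its tRNA counts as Pro-AGG, against 0.12 to 0.27% in the other controls and 0.07 to 0.27% with NMES. Without A3202 and A3206, 0 of 355 tRNA entries were lower at an unadjusted p under 0.05 in edgeR. Val-CAC and Val-AAC had medians of -2.10 and -2.03, which were -1.27 and -0.72 without A3206, and Val-TAC of 0.16. Ala-TGC had a median of -1.20 and Ala-AGC of 1.35. Over all tested tRNA entries the median was -0.13, and 60.1% were below 0. Glycine and glutamate tRNAs dominated both groups: glycine took 49.3 ± 7.96% of tRNA counts with NMES and 45.3 ± 15.6% in control (SD, n = 6 each; p = 0.60, exact permutation test), glutamate 28.3 ± 7.17% and 29.9 ± 10.6% (SD, n = 6 each; p = 0.75, exact permutation test), and isoleucine 6.91 ± 4.04% and 7.63 ± 5.42% (SD, n = 6 each; p = 0.81, exact permutation test). Whether the counted RNAs were fragments or whole tRNAs was not tested. No amino acid passed an unadjusted p of 0.05. The most abundant entry, tRNA-Gly-GCC-2-1, had 11805 to 284743 CPM in control (median 43724) and 21448 to 142737 with NMES (median 38890), with A3206 highest. The smallest p-values on the higher side were those of tRNA-Gln-CTG-7-1 (2.00), tRNA-Tyr-GTA-5-1 (0.81) and tRNA-Asn-GTT-3-2 (0.75), at edgeR adjusted p-values of 0.38 to 0.57.

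**Figure D5:**
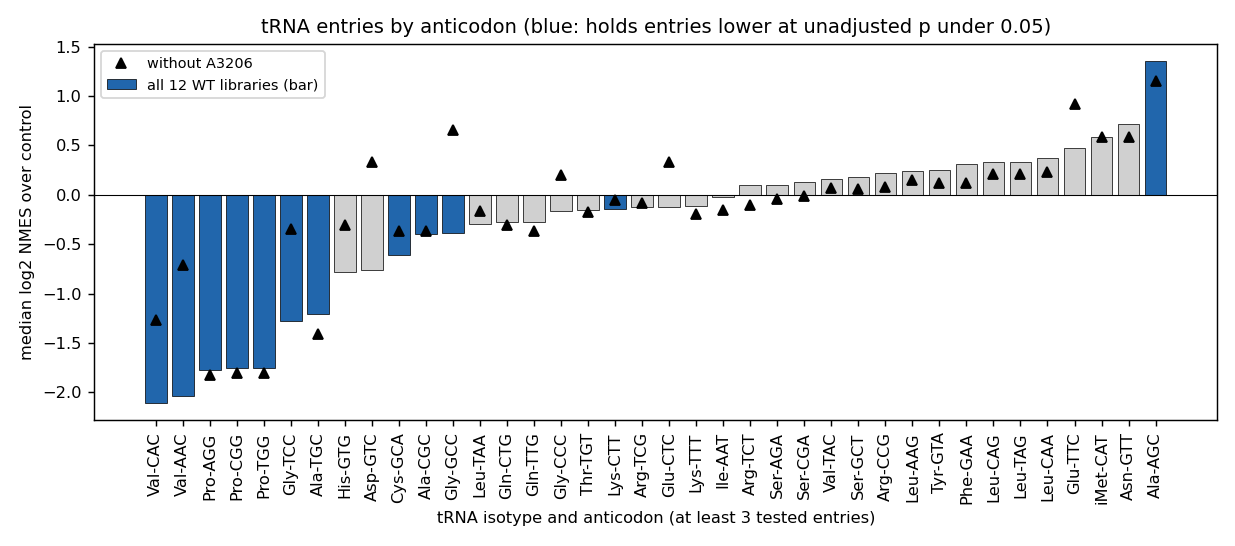
Median log2 difference between NMES and control over the tested entries of each anticodon with at least 3 entries, with all 12 WT libraries (bars) and without control library A3206 (triangles). Blue bars hold entries lower at an unadjusted p under 0.05. The proline anticodons, Val-CAC and Val-AAC lie lowest, and Gly-TCC moves from -1.27 to -0.35 without A3206. Control A3202, where proline tRNAs took 3.99% of tRNA counts, is in both settings.

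snRNAs and snoRNAs were tested together, and few differed in the fit. Of 93 entries 0 had an edgeR adjusted p under 0.05, 1 (1.08%) was higher and 1 (1.08%) lower at an unadjusted p under 0.05, and DESeq2 called 1. Over all 93 entries 45.2% had a log2 difference below 0. Without A3206, 2 of 97 (2.06%) were lower and 0 higher. The lower one was Snord83b, also DESeq2's call (adjusted p = 0.0062). The higher one was the predicted snRNA gene Gm25682, at 2208 to 8491 CPM in control (median 5858) and 4761 to 20283 with NMES (median 8759). A3199 was the highest and the groups overlapped, with a log2 difference of 0.97 (SE 0.41, edgeR unadjusted p = 0.024) that was 0.73 without A3206 (edgeR unadjusted p = 0.21). Gm22513, the most abundant entry, gave 0.35 (SE 0.38), while Gm22220 (0.77), Snord57 (1.16), Gm25789 (-1.75) and Gm23212 (-1.14) had edgeR adjusted p-values of 0.98, and of the 12 tested named spliceosomal Rnu RNAs 0 passed an unadjusted p of 0.05. In library CPM the Rnu RNAs summed to 396 to 871 with NMES and 510 to 2754 in control, with A3206 at 2754 and the other controls at 813 or less.

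circRNAs were the largest class, and their smallest p-values came from single libraries. Of 7008 entries 0 had an edgeR adjusted p under 0.05 and DESeq2 called 0, while 133 (1.90%) were higher and 170 (2.43%) lower at an unadjusted p under 0.05. Log2 differences were below 0 for 51.1%. Without A3206, 112 of 7192 (1.56%) were higher and 147 (2.04%) lower. Over the class, 93 entries (1.33%) had 1 library over 5 times the next, and among the 303 with an unadjusted p under 0.05 there were 72 (23.8%), and 19 of the 20 with the smallest p. mmu_circ_0004863 had 27702 CPM in NMES library A3203, 46.9 to 108 in the other NMES libraries and 30.0 to 58.2 in control, and its log2 difference of 6.62 (edgeR adjusted p = 0.086) became 0.62 without A3203. mmu_circ_0008999 had 2987 CPM in control A3204 and 8.48 to 35.2 in all other libraries, and went from -4.71 to -0.18 without A3204. The files do not pair circRNA identifiers with genes, and 2260 of 14546 entries with counts had the same counts as another in all 12 libraries.

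A smaller set of circRNAs kept low unadjusted p-values whichever single WT library was left out of the edgeR fit. Of the 7008, 54 (0.771%) kept an edgeR unadjusted p under 0.05 whichever WT library was left out, in 51 distinct patterns of counts. Of these 54, 4 had 1 library over 5 times the next. The groups did not overlap for 10 of the 7008 (0.143%), 5 higher and 5 lower, including a pair with identical values. Full separation of 6 against 6 libraries has an exact permutation p of 0.0022 for a single entry. The share of 0.143% is not above that, so the 10 are no more than random labels would give. For the 54, random labels were not tried. mmu_circ_0011937 had 1.15 to 7.56 CPM in control (median 4.00) and 11.7 to 27.5 with NMES (median 13.8). All NMES libraries were above all controls, with a log2 difference of 1.79 (SE 0.50, edgeR adjusted p = 0.27). mmu_circ_0014904 had 34.3 to 94.3 CPM in control (median 41.9) and 23.4 to 36.6 with NMES (median 27.3). Only NMES A3203 reached into the controls, and the log2 difference was -0.83 (SE 0.24, edgeR adjusted p = 0.33). A further stable entry varied over a wide range in both groups, from 78.2 to 3824 CPM in control (median 853) and from 233 to 62626 with NMES (median 5607), where A3205 and A3207 were highest.

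The NMES difference in WT was also set against that in KlHET mice, in the same fit, and 12 entries passed an adjusted p under 0.05. Of the 129 miRNAs these were 3 (2.33%), miR-9-5p, miR-128-3p and miR-7a-5p, with WT minus KlHET log2 differences of -7.74, -4.86 and -3.77 (edgeR adjusted p = 0.028, 0.032 and 0.040). Without A3206 the adjusted p-values were 0.27, 0.48 and 0.38, and 0 miRNAs passed without NMES library A3203, A3205, A3207 or A3209 either. Of the 341 tRNAs these were 9 (2.64%), all tRNA-Ala-AGC, with differences of 7.19 to 7.40 (edgeR adjusted p = 0.040). In WT their levels averaged 181.6 to 195.0 CPM in control and 488.4 to 499.8 with NMES, and in KlHET 9779 or more in control and 154.2 to 170.8 with NMES, and without KlHET control library J3517 the adjusted p was 0.56 to 0.60. In 9 of the 12 fits that left out 1 WT library, those without any control or without NMES A3201, A3203 or A3205, 0 tRNAs passed. At an unadjusted p under 0.05 were 21 miRNAs (16.3%) and 67 tRNAs (19.6%). Among snoRNAs with snRNAs and among circRNAs, 0 passed the adjusted threshold, with 30 of 93 (32.3%) and 557 of 7008 (7.95%) at an unadjusted p under 0.05 in edgeR. The 30 became 2 to 14 whichever WT library was left out, with 2 without A3206, and 9 without J3517. DESeq2 called 1 miRNA and 0 tRNAs.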

How the data were processed

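The members and lists were chosen with earlier results of these data known. The deposited values are raw counts per annotated ncRNA, which the authors made by aligning single-end reads with STAR 2.5.3a (mm10 in the submitters' processing notes) and analysing them with COMPSRA 1.0.3. Trimming, the annotation, any requirement for a back-splice junction and the handling of multi-mapped reads are not given in the sources used here. The table holds 18710 entries, 15384 circRNAs, 1240 miRNAs (703 mature, 537 precursors), 464 tRNAs, 856 snoRNAs, 759 snRNAs and 7 others (not fitted), sorted into classes by name and annotation. Total counts ranged from 580603 to 3389206 in WT libraries. Without molecular identifiers, counts are not independent molecules.

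Each class was fitted with edgeR 4.0.16 (R 4.3.3, limma 3.58.1): filterByExpr by group, TMM within the class, quasi-likelihood fit of 4 group means to all 28 libraries, contrast NMES minus control in WT, Benjamini-Hochberg within the class. SE is the absolute log2 difference over the square root of F. A call is an adjusted p under 0.05. Class, isotype, anticodon and detection values were compared by exact two-sided permutation tests, adjusted within each family. The KlHET difference of shares used 100000 permutations within genotypes. Python 3.11.15, numpy 2.4.6 and pandas 2.3.3 were used. DESeq2 1.42.0, other normalizations and filters, WT libraries alone, mature arms alone and leaving out libraries were alternatives. The authors name DESeq2 1.42.1. The procedure was tested on simulated data.

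Named entries are those called (up to 10 per direction), those with the smallest p in each direction (6 for miRNAs, 3 in other classes), up to 10 per class with an unadjusted p under 0.05 in the full fit and each fit without 1 WT library, miRNAs without overlap, the most abundant (6 for miRNAs, 1 in other classes), and of each miRNA list the most abundant tested member and any with an unadjusted p under 0.05. circRNA identifiers could not be paired with genes, so 4 of those named are printed. The replicate of a library is its accession order. Of 35 named miRNA entries 29 were matched in RefSeq GRCm38.p6.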

Additional observations from a re-analysis of the deposited data

Results flagged for a closer look

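In groups of 6, a library was singled out where its gap to the nearest other, divided by the group's range, exceeded Dixon's critical value. That value is for 6 values, chance passes it in about 1 in 20 groups, and 128 groups were tested. CPM was taken on a log scale and class shares in plain percent. On the log scale miR-9-5p in A3206 did not pass, although it was far above the other WT libraries. Control library A3206 was far above the other controls for miR-128-3p (116380 CPM), let-7g-5p (38108.3 CPM) and let-7c-5p (63242.7 CPM), and for the shares of tRNA (63.336% of counts), snoRNA (0.4376%) and snRNA (1.9776%), and far below them for circRNA (31.401%). NMES library A3203 was high for miR-5119 (171328 CPM), mir-5119 (151085 CPM), mmu_circ_0004863 (27702.2 CPM) and mmu_circ_0011937 (27.4824 CPM). miR-146b-5p was high in control A3202 (74968.7 CPM), mmu_circ_0008999 in control A3204 (2987.4 CPM) and miR-24-2-5p in NMES A3209 (748.12 CPM). On the low side were mir-215 in control A3198 (123.301 CPM), Snord57 in control A3200 (0 CPM) and Gm25789 in control A3208 (0 CPM).

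The NMES difference in WT departed from that in KlHET mice for 12 entries, at an adjusted p under 0.05 of the interaction in edgeR's quasi-likelihood test. The WT minus KlHET log2 difference was -7.74393 for miR-9-5p, -4.86221 for miR-128-3p and -3.76807 for miR-7a-5p. Among tRNA-Ala-AGC entries it was 7.24101 for 5-1, 5-2 and 5-3, 7.24015 for 10-1, 7.23929 for 12-1, 7.18819 for 4-1 and 4-2, 7.40382 for 7-1 and 7.38595 for 6-1. None of the 3 miRNAs passed without A3206, or without NMES library A3203, A3205, A3207 or A3209, and none of the tRNAs passed without KlHET control J3517, without any 1 of the WT controls or without NMES library A3201, A3203 or A3205.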

How the results depend on the processing

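No paired analysis was possible because the library names carry no number shared between groups. Of 1442 values of 62 single results, 1313 kept direction and side of the threshold, 55 passed it only under the alternative and 74 took the other direction, 0 of them past the threshold. The cause of these shifts was not tested. Low counts limit the snoRNAs. Counts below are of RNAs at an adjusted and an unadjusted p under 0.05, WT difference first, then difference from KlHET. Alternatives that left out A3206, A3202 or J3517 together, and the WT libraries without A3206, were chosen after seeing the data.

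With DESeq2, 4 miRNAs, 7 tRNAs and 1 snoRNA were called, 5 snoRNAs with snRNAs were unadjusted, and from KlHET 1 miRNA (12 unadjusted), 0 tRNAs (31) and 11 snoRNAs with snRNAs unadjusted; miR-486b-5p was at -0.019 and Gm22513 at -0.042. With TMMwsp, 20 tRNAs were unadjusted and 0 called from KlHET, and miR-486b-5p was at -0.035. With all classes in 1 fit, 37 miRNAs and 28 snoRNAs with snRNAs were unadjusted, 0 miRNAs and 0 tRNAs called from KlHET and 17 snoRNAs with snRNAs unadjusted; miR-486b-5p was at -0.42, miR-143-3p -0.61, miR-10b-5p -0.25, Snord57 -0.41 and Gm22513 -1.07. With library size alone, 10 miRNAs, 17 tRNAs, 1 snoRNA or snRNA and 173 circRNAs (11 called) were unadjusted, and from KlHET 9 miRNAs (1 called), 0 tRNAs called and 0 snoRNAs with snRNAs; miR-5119 was at 0.10, mir-5119 0.21, miR-486a-5p 0.24, miR-21a-5p 0.066 and tRNA-Gly-GCC-2-1 0.12. Without a filter, 185 miRNAs (19 called), 304 snoRNAs with snRNAs (49) and 992 circRNAs (19) were unadjusted, and from KlHET 148 (29), 197 (65) and 1293 (3); mir-5119 was at 0.038 and miR-486a-5p at 0.060. With the strict filter, 0 tRNAs were called and 9 snoRNAs with snRNAs unadjusted from KlHET, and miR-486a-5p was at 0.045. Mature arms alone put miR-486a-5p at 0.016.

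With the WT libraries alone, 1 snoRNA or snRNA was unadjusted, mir-5119 was at 0.0029 and miR-486a-5p at 0.042. Without A3206 as well, 8 miRNAs and 7 snoRNAs with snRNAs were unadjusted; miR-486b-5p was at -0.074, miR-127-3p 0.045 and tRNA-Gly-GCC-2-1 0.72. Without A3202 and A3206, 4 miRNAs, 6 tRNAs and 1 snoRNA were unadjusted and 5 circRNAs called, and from KlHET 10 miRNAs (0 called), 0 tRNAs called and 3 snoRNAs with snRNAs; miR-9-5p was at 0.016, miR-5119 0.11, mir-5119 0.031, miR-486b-5p -0.31, miR-21a-5p 0.059, miR-143-3p -0.14, miR-10b-5p -0.059 and tRNA-Gly-GCC-2-1 0.90. Without A3206 and J3517, 9 miRNAs were unadjusted, and from KlHET 10 (0 called), 0 tRNAs called and 1 snoRNA or snRNA; miR-486b-5p was at -0.075, miR-127-3p 0.071, miR-218-5p 0.13 and tRNA-Gly-GCC-2-1 0.70. Without J3517, 7 tRNAs were called, and from KlHET 0, with 9 snoRNAs with snRNAs unadjusted; miR-486b-5p was at -0.017. With at least 5 counts, 0 classes differed in numbers detected and snoRNAs differed by -51.7; thinned to equal depth 2 did, with circRNAs at 49.3 and miRNAs at -51.0. On a log10 scale the Ile share differed by 0.0429.

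With 1 WT library left out, 0 to 9 miRNAs were called (9 to 23 unadjusted), 0 to 7 tRNAs (21 to 61), 1 to 4 snoRNAs with snRNAs unadjusted and 0 to 1 circRNAs called (251 to 386); from KlHET 0 to 4 miRNAs (13 to 23), 0 to 9 tRNAs (51 to 67) and 2 to 14 snoRNAs with snRNAs unadjusted. The 9 miRNAs were called without control A3198 and the 7 tRNAs without A3198 or A3204. Class shares differed in 1 to 2 classes, numbers detected in 0 to 2 and isotypes in 0 to 1. Shares differed by -2.09 to 9.25 points for circRNA, -7.87 to 3.395 for tRNA and -0.0922 to -0.0160 for snoRNA, with Glu at -4.82 to 0.400, Gly -0.563 to 8.46 and Ile -2.07 to 0.616. Numbers detected differed by -364.5 to 77.4 circRNAs, -75.1 to -25.7 miRNAs and -80.9 to -18.1 snoRNAs. Log2 differences ranged from -0.67 to 0.041 for miR-122-5p, -2.95 to 0.15 for miR-127-3p, -0.051 to 0.32 for miR-143-3p, -0.57 to 0.012 for miR-148a-3p, -0.74 to 0.51 for miR-1a-3p, -4.30 to 0.18 for miR-218-5p, -0.37 to 0.12 for miR-21a-5p, -0.044 to 0.25 for miR-486a-5p, -0.037 to 0.28 for miR-486b-5p, -0.56 to 0.33 for miR-5119, -0.27 to 0.22 for mir-5119 and -0.82 to 0.66 for tRNA-Gly-GCC-2-1.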
